A study of Mus musculus with 18 samples.

Results

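The cardiac myosin heavy and light chain genes were examined in RNA-seq of mouse cardiac tissue. The 10 genes were chosen by name, namely Myh6, Myh7, Myh7b, Myl1, Myl2, Myl3, Myl4, Myl7, Myl12a and Myl12b, and are 10 of the 12913 genes to which the listed Ensembl transcripts could be summed. The study infused wild-type C57BL/6 mice for 28 days with saline or with angiotensin II (AngII) at 500 ng per kg per min, a peptide hormone that raises blood pressure and drives growth and fibrosis of the heart. The third group (AngII_ETH) received the same infusion together with 10 mg per kg per day of ethoxysanguinarine, a derivative of the plant alkaloid sanguinarine. There were 6 libraries in each of the 3 groups, made from total RNA after removal of ribosomal RNA. The labels name only cardiac tissue, not a chamber, and give no age or sex, and no transgene or deletion is listed for any group.

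Sarcomeric myosin is a hexamer of a pair of heavy chains, which carry the motor head and the rod, and of regulatory and essential light chains bound at the neck. In the adult mouse heart the fast alpha heavy chain (Myh6) is the main form, and the slow beta heavy chain (Myh7) is known to be re-expressed under pressure overload. The light chains are chamber-specific, with Myl7 (regulatory) and Myl4 (essential) in atria and Myl2 (regulatory) and Myl3 (essential) in ventricles. Myl1 is the essential light chain of fast skeletal muscle and is also expressed in atria, while Myl12a and Myl12b encode near-identical regulatory light chains of nonmuscle myosin II.

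The heavy chain genes Myh6 (chr14:54941921-54966927, minus strand) and Myh7 (chr14:54970684-54994626, minus strand) lie side by side in GRCm38. Their coding sequences were identical at 91.8% of 5799 aligned bases, with a longest identical run of 245 bases, and 12.02% of all stretches of 100 bases of Myh6 also occurred in Myh7. Myl12a (chr17:70993656-71002878) and Myl12b (chr17:70973133-70990890), neighbours on the minus strand, were identical at 96.5% of 516 coding bases, and 37.3% of the 50-base stretches of Myl12a occurred in Myl12b. Reads from such stretches cannot be assigned to 1 gene by sequence, so the split between the genes of each pair is uncertain. The first 90 coding bases of each pair are shown because every AngII library exceeded every saline library in Myl12a and not in Myl12b, and because the heavy chain pair is commonly used as a sign of cardiac load. Capitals mark the bases that differ, 4 in the light chain pair and 20 in the heavy chain pair.
Myl12a: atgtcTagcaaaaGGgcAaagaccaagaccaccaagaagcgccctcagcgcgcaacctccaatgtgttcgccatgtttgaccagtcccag
Myl12b: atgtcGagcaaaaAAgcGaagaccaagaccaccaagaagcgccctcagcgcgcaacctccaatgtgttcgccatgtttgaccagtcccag
Myh6: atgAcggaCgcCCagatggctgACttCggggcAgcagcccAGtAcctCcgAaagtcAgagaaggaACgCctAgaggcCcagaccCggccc
Myh7: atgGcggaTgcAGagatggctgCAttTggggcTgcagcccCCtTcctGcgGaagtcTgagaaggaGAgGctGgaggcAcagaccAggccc

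The essential light chains Myl4 and Myl3 (78.1% identity) and the regulatory chains Myl7 and Myl2 (65.9%) were less alike. The promoters of Myl7 and Myl3 are shown because these genes of opposite chambers moved in opposite directions between libraries, with a Spearman's rho of -0.812 over the 18 libraries. RefSeq held a promoter for all 10 genes. Myl2 and Myl4 had a stronger opposite rho of -0.913 but were not shown. Their RefSeq starts lay 7762 and 8227 bases (Myl2) and 26322 bases (Myl4) from the nearest start of a listed transcript. Each of the 2 promoters shown runs from 250 bases before to 50 bases after the RefSeq start (GRCm38.p6). Myl7 is at chr11:5898733-5899032 on the minus strand and Myl3 at chr9:110763428-110763727 on the plus strand. Capitals mark the MCAT motif (CATTCC), the CArG box and the GATA motif (GATAA), each searched on both strands with no overlap among them here.
Myl7: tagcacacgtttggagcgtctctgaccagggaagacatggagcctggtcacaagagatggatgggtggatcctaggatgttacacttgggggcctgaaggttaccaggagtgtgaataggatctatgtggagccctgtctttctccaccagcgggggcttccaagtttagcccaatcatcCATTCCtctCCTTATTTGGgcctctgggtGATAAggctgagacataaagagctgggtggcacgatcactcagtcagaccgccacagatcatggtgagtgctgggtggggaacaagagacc
Myl3: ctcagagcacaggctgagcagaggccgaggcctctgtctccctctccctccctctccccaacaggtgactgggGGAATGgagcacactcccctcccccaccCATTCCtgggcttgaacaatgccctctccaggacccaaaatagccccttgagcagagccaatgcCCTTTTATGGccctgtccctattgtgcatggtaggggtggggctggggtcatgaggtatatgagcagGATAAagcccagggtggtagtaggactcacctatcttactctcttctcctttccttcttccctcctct
The CArG box, the core bound by serum response factor, occurred in 1.63% of 32851 RefSeq promoters of the same length, the MCAT motif in 14.7% and the GATA motif in 25.4%. Both promoters held all 3, while the promoters of the other members held no CArG box. These matches are a description of the letters only.

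Values are fragments per kilobase of transcript, scaled to the size of each library (FPKM), inferred from the values and summed over the transcripts of a gene. They are per length, so levels of different genes can be set side by side, but the order depends on how transcripts are summed. With plain sums in the saline group the order of the mean levels was Myl4 at 2548 ± 1467 FPKM (SD, n = 6), Myl7 at 2404 ± 1342, Myl2 at 2321 ± 2410 and Myl3 at 1640 ± 1730, 4 neighbours whose spreads between libraries overlapped. Within single libraries the chains could differ widely. Myl7 and Myl2 were at 0 and 6568 FPKM in saline replicate 5 and at 3238 and 3.77 in saline replicate 6. With each transcript weighted by its length and the sum divided by the longest listed transcript, an alternative chosen after seeing these data, the means were Myl7 at 2404 ± 1342, Myl2 at 1715 ± 1774, Myl3 at 1346 ± 1426 and Myl4 at 705 ± 406 FPKM, so Myl4 went from the highest to the lowest of the 4. The longest listed Myl4 transcript, ENSMUST00000155271 with 3273 bases, was at 0.00824 to 19.7 FPKM over the 18 libraries, while ENSMUST00000106956 with 900 bases was at 0.908 to 6341, so the divisor there is a transcript of low level. With plain sums Myh6 followed at 484 ± 435 FPKM, Myl12a at 215 ± 37.6 and Myl1 at 104 ± 59.2. The lowest were Myl12b at 27.8 ± 6.15 FPKM, Myh7 at 19.8 ± 9.91 and Myh7b at 1.496 ± 1.77. In both AngII groups Myl2 and Myl3 held the first and second places, with 3733 ± 1992 and 3221 ± 1692 FPKM in AngII and 3870 ± 2217 and 3335 ± 1762 in AngII_ETH (SD, n = 6 each). Their spread again covered the level of Myl4, at 2669 ± 2324 and 2320 ± 1818 FPKM.

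**Figure D1:**
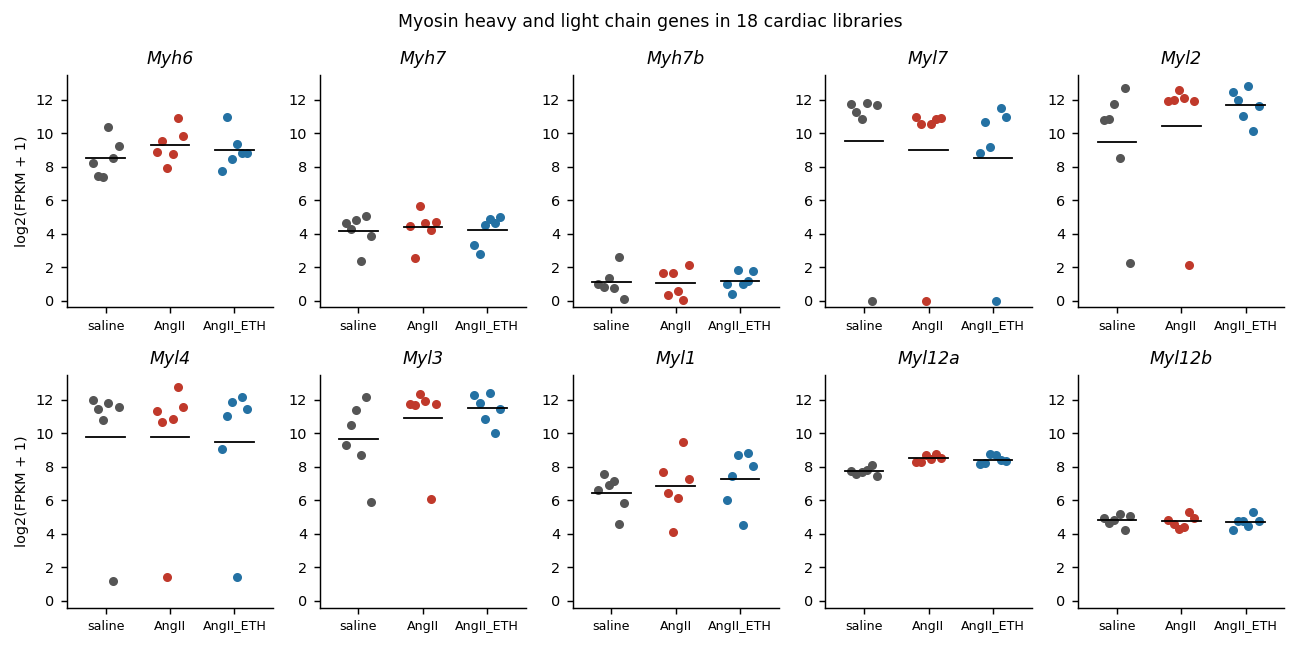
Each panel plots 1 gene on a log2(FPKM + 1) axis against the 3 groups, with 1 point per library (6 a group) and a line at the group mean. The Myl12a points of the saline group, at 174 to 282 FPKM, lie below all 12 points of the other groups, at 292 to 442 FPKM, while Myl7, Myl4, Myl2 and Myl3 each have libraries near 0 or far below the rest.

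The widest differences among the 18 libraries lay within the groups and in the chamber-specific light chains. Myl7 was listed at 0 FPKM in saline replicate 5, AngII replicate 3 and AngII_ETH replicate 4, and at 455 to 3519 FPKM in the other 15 libraries. Myl4 was at 1.30, 1.65 and 1.70 FPKM in those same 3 libraries. Each group thus held 1 library nearly without RNA of the atrial light chains. In these 3 libraries Myl2 was at 6568, 6019 and 7060 FPKM and Myl3 at 4611, 5174 and 5526, the highest values of both genes within each group.

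Most markers of the chambers, none of them a member, moved with these values. Of 10 atrial markers, 8, 6 and 6 were lowest of their group in the 3 libraries, and of 8 ventricular markers 6, 3 and 5 were highest. The exceptions include the atrial potassium channel gene Kcna5, which was the highest of its group in saline replicate 5 at 7.42 FPKM and in AngII_ETH replicate 4 at 18.8, and Kcnk3, at 82.3 to 132 FPKM in all libraries. Sln, an atrial regulator of the calcium pump, was at 0.111, 0.205 and 0 FPKM in the 3 libraries, and the ventricular transcription factor Irx4 at 11.3, 11.6 and 11.95. In saline replicate 6 and AngII replicate 5 the pattern was largely the opposite, with 7 and 8 of the 8 ventricular markers lowest of their group and 1 and 6 of the 10 atrial markers highest. The atrial growth factor gene Bmp10 was an exception, at 0.08055 FPKM in AngII replicate 5. It was also at 0.0324 FPKM in AngII replicate 6 and at 0.0639, 3.14 and 1.30 in AngII_ETH replicates 1, 3 and 5. Myl4 was at 538 to 4697 FPKM in those further libraries. In the remaining libraries with Myl7, Bmp10 was at 18.1 to 868 FPKM, and the cause was not tested. In saline replicate 6 and AngII replicate 5, Myl2 was at 3.77 and 3.37 FPKM and Myl3 at 59.8 and 67.2, while Myl4 was at 3064 and 6919. Irx4 was listed at 0 and Sln at 577 and 1146 FPKM in the same pair of libraries. The level of chamber tissue in a library and the level of a gene per cell cannot be told apart in bulk RNA.

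A chamber level was computed for each library as the mean log2(FPKM + 1) of 10 atrial markers minus that of 8 ventricular markers. The atrial markers include Bmp10 and also Kcna5, at 3.29 to 7.42 FPKM in saline, 6.04 to 13.4 in AngII and 7.07 to 18.8 in AngII_ETH. The chamber level is therefore not a measure of chamber tissue alone. It averaged 0.76 ± 1.77 in saline, 0.28 ± 1.33 in AngII and 0.13 ± 1.36 in AngII_ETH (SD, n = 6 each), with ranges that overlapped widely. The summed level of 6 markers shared by all cardiomyocytes ran from 1982 to 9883 FPKM in saline, 7176 to 10484 in AngII and 4375 to 10536 in AngII_ETH. Its lowest values were in saline replicates 4 and 6, at 1982 and 3536 FPKM. The same libraries had the highest adipocyte marker sums, at 707 and 1130 FPKM. Markers of other cell types were present as well. The summed level of 5 listed adipocyte markers of 6 ran from 0.538 to 1130 FPKM in saline, from 0.173 to 24.0 in AngII and from 0 to 256 in AngII_ETH. That of 6 smooth muscle markers ran from 356 to 1567, from 469 to 857 and from 506 to 1440 FPKM, and included Des, which cardiomyocytes also express, at 147 to 715 FPKM over all libraries. The smooth muscle actin gene Acta2 was at 66.9 to 632 FPKM in saline, 52.6 to 111 in AngII and 80.9 to 437 in AngII_ETH, and Tagln at 29.0 to 551, 21.2 to 105 and 44.0 to 369. Of 10 fast skeletal muscle markers, 5 were listed, with a summed level of 158 to 912 FPKM over all libraries, most of it from Ckm, a creatine kinase gene that heart muscle also expresses, at 150 to 911. The other 4 (Tnnt3, Tnni2, Actn3 and Atp2a1) were at 0 to 10.95 FPKM. Summed levels of 4 endothelial markers had medians of 188, 218 and 223 FPKM in saline, AngII and AngII_ETH, with ranges of 165 to 223, 184 to 242 and 159 to 273. For 5 fibroblast markers the medians were 928.5, 732 and 1043 FPKM, and for 4 macrophage markers 92.0, 103 and 114. The chamber level and the adipocyte level entered fits described with the results, and the part of the other markers was not tested.

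**Figure D2:**
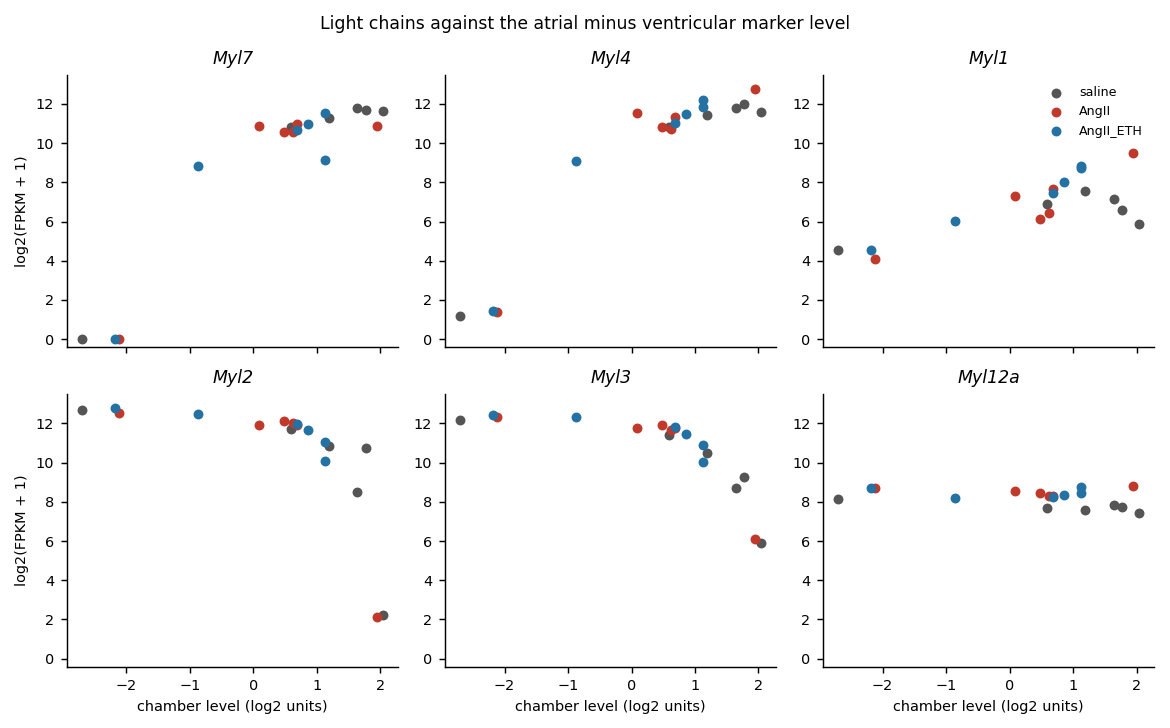
Light chain genes are plotted, 1 a panel, on a log2(FPKM + 1) axis against the chamber level in log2 units, 1 point per library coloured by group. Myl7 and Myl4 are near 0 in the 3 libraries with a chamber level under -2, Myl2 and Myl3 fall to their lowest in 2 libraries at 1.95 and 2.04, and all saline points of Myl12a lie below all others.

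The pairs of light chains therefore followed each other from library to library. Over the 18 libraries Spearman's rho was 0.975 between Myl2 and Myl3, 0.756 between Myl4 and Myl7 and -0.913 between Myl2 and Myl4, as a description of libraries that differ in chamber markers. Myl1 was at 16.1 to 22.7 FPKM in the 3 libraries without Myl7 and reached 709 FPKM in AngII replicate 5, and its rho with Myl4 was 0.742. Myl12b, a nonmuscle chain, also followed the atrial genes, with rho of 0.862 with Myl4 and -0.853 with Myl2. Myl12a did not follow Myl4, with a rho of 0.0691, and had rho of -0.46 with Myl7, 0.212 with Myl2 and 0.313 with Myl3. The 2 nonmuscle chains had a rho of -0.0464 with each other.

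Among 4077 genes compared over the 18 libraries, those ranked most like Myl4 were the predicted gene Gm13054 (rho 0.98), Nppa, which encodes atrial natriuretic peptide (0.98), and Sln (0.98). For Myl7 they were Tmem176a (0.94), Igfbp4 (0.93) and Smoc1 (0.92). For Myl2 they were the calcium-binding protein gene Tesc (0.99), the mitochondrial cyclophilin gene Ppif (0.98) and the isocitrate dehydrogenase gene Idh2 (0.98). Myl3 ranked with Mgst3, Tesc and the mitochondrial creatine kinase gene Ckmt2, each at 0.98. The heavy chains had less close partners, led by Gm10177 (0.83) and the ribosomal protein gene Rpl35a (0.75) for Myh6 and by the ketone body enzyme gene Bdh1 (0.76) and Mul1 (0.72) for Myh7.

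The share of the atrial chain within each pair is free of the scaling between libraries. The Myl7 share of Myl7 plus Myl2 was lowest at 0%, with a median of 61.8% and a highest value of 99.9% in saline. It was 0%, 29.7% and 99.8% in AngII, and 0%, 24.8% and 72.6% in AngII_ETH. The 3 groups overlapped over most of their range. The means were 58.1 ± 36.9%, 36.3 ± 33.4% and 28.0 ± 25.9% (SD, n = 6 each), and the exact two-sided permutation test over 924 assignments, adjusted by Benjamini-Hochberg over 9 tests, gave adjusted p of 0.569, 0.849 and 0.569 for AngII against saline, AngII_ETH against AngII and AngII_ETH against saline. The Myl4 share of Myl4 plus Myl3 averaged 63.4 ± 37.4%, 42.3 ± 32.3% and 40.8 ± 31.9%, with adjusted p of 0.569, 0.946 and 0.569 in the same exact test. The smallest p this design allows is 0.00216.

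In the plain sums the widest gap between these 2 shares among the 18 libraries was in AngII_ETH replicate 3. There Myl7 made up 21.3% of the regulatory pair while Myl4 made up 66.3% of the essential pair. Myl7 was at 573 FPKM in that library and Myl4 at 3734, whereas AngII_ETH replicate 5 had 2921 and 4697. Saline replicate 1 also had a gap, with 65.8% and 86.6%. With length-weighted sums neither gap was the widest. The shares were then 26.5% and 42.1% in AngII_ETH replicate 3 and 72.05% and 68.4% in saline replicate 1, while saline replicate 2 had the widest gap, with 65.3% for Myl7 and 39.1% for Myl4.

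**Figure D3:**
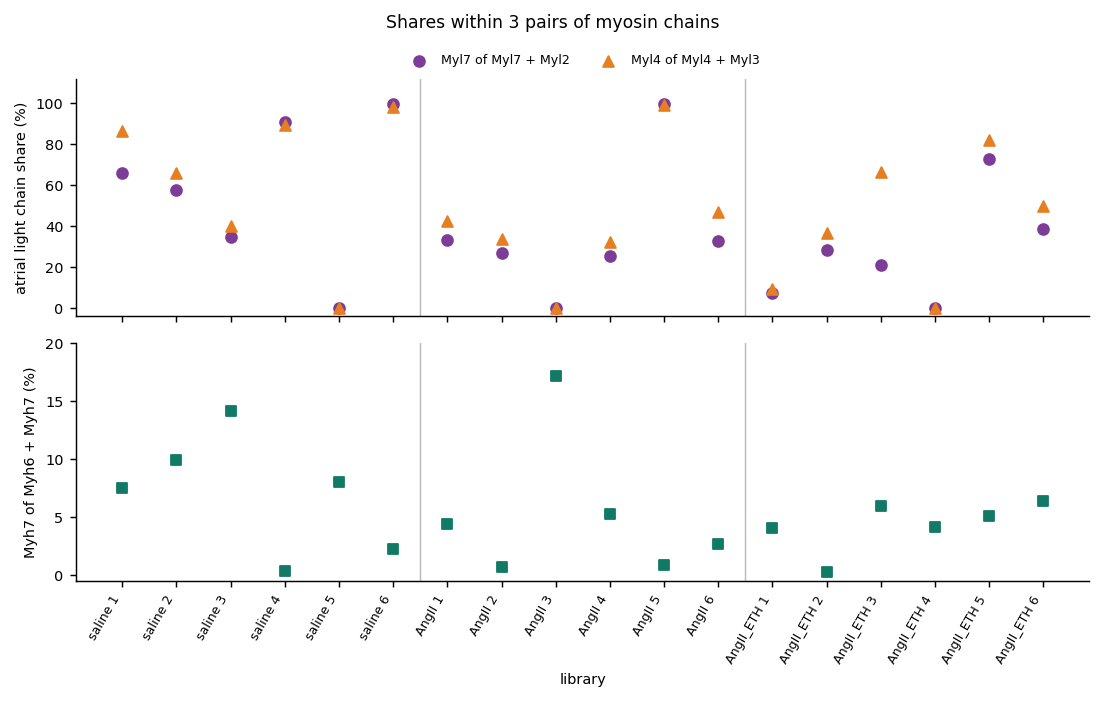
The upper panel plots, for each of the 18 libraries, the share in percent of Myl7 in Myl7 plus Myl2 (circles) and of Myl4 in Myl4 plus Myl3 (triangles), and the lower panel the share of Myh7 in Myh6 plus Myh7 (squares), with lines between the groups. Each group has a library at or near 0% for both atrial chains, and in these plain transcript sums AngII_ETH replicate 3 has the widest gap between the symbols, 21.3% against 66.3%.

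The heavy chains were compared next, since a higher Myh7 relative to Myh6 is known from mouse hearts under pressure overload. Myh6 was lowest at 163 FPKM, with a median of 328 and a highest value of 1307 in saline. It was at 240, 602 and 1929 FPKM in AngII and at 214, 447 and 2020 in AngII_ETH. Myh7 was at 4.07, 21.3 and 31.5 FPKM in saline, at 4.93, 22.5 and 49.9 in AngII and at 5.94, 22.9 and 30.4 in AngII_ETH. The 3 groups overlapped for both genes. The log2 fold change of AngII against saline was 0.78 for Myh6 (SE 0.585, adjusted p 0.724) and 0.21 for Myh7 (SE 0.517, adjusted p 0.923) in limma on log2(FPKM + 1), adjusted over 11704 genes.

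With ethoxysanguinarine the heavy chains differed from AngII by -0.27 for Myh6 (95% interval -1.50 to 0.96) and -0.18 for Myh7 (-1.27 to 0.91). These intervals do not show that the groups were alike. Myh7 made up 0.310 to 14.2% of Myh6 plus Myh7 in saline, 0.659 to 17.2% in AngII and 0.293 to 6.36% in AngII_ETH. In these sums Myh6 includes a transcript of 542 bases, described below with the other transcripts. With the length-weighted sums Myh7 made up 0.301 to 61.2% in saline, 0.757 to 63.3% in AngII and 0.332 to 31.3% in AngII_ETH, so the level of the share depends on how transcripts are summed. For the plain sums the means were 7.02 ± 5.08%, 5.20 ± 6.17% and 4.33 ± 2.18% (SD, n = 6 each), and the exact permutation test gave adjusted p of 0.849, 0.946 and 0.569. For the length-weighted sums the means were 29.5 ± 25.0%, 17.6 ± 23.8% and 16.1 ± 13.65% (SD, n = 6 each), with adjusted p of 0.588, 0.905 and 0.588 in the same exact test. Myh7b, a slow-type heavy chain that hosts a microRNA, was at 0.0211 to 4.97 FPKM over all libraries, and its rho with Myh7 was 0.719 over 18 libraries. The antisense RNA Mhrt shares 463 exonic bases with Myh7 on the opposite strand and was at 9.46 to 37.8 FPKM. The sources do not state that strand was used in the counting, so reads of the shared bases cannot be told apart.

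In all files 6 transcripts of Myh6 and 4 of Myh7 were listed. Full-length Myh6, ENSMUST00000081857 (6113 bases, 39 exons), was lowest at 1.25 FPKM, with a median of 35.5 and a highest value of 1039 in saline. It was at 0.271, 261 and 1874 FPKM in AngII and at 0.232, 137 and 1571 in AngII_ETH. ENSMUST00000228731, a protein-coding transcript of 542 bases and 4 exons at the 3′ end, was at 0.0959 to 286 FPKM in saline, 0.198 to 435 in AngII and 0.0732 to 371 in AngII_ETH. Of its 542 bases, 539 also lie in the full-length transcript. The full-length form held 0.108 to 99.0% of the Myh6 sum and the short form 0.0103 to 97.8%, so the sum rests on different transcripts in different libraries.

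The short form was under 1 FPKM in saline replicate 6, AngII replicate 5 and AngII_ETH replicate 4, 1 library of each group, with the full-length form at 603, 1874 and 643 FPKM there. The full-length form was under 10 FPKM in 3 saline, 1 AngII and 1 AngII_ETH libraries. With the length-weighted sums Myh6 ran from 16.5 to 1922 FPKM and its log2 fold change of AngII against saline was 1.27 (SE 1.29). The other 4 Myh6 transcripts were lower. ENSMUST00000226297, a second full-length form with the same coding bases, was at 0 to 70.6 FPKM and under 1 FPKM in 13 libraries. The retained-intron transcripts ENSMUST00000227905 and ENSMUST00000131892 were at 1.93 to 7.75 and 1.08 to 2.94 FPKM, and the 5′ transcript ENSMUST00000111456 was at 0.0108 to 1.47 FPKM.

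The 2 full-length Myh7 transcripts were hardly listed together in any library. ENSMUST00000102803 (6135 bases) and ENSMUST00000168485 (6230 bases) share 6052 exonic bases and the whole coding sequence of 5805 bases. In each of the 18 libraries 1 of them held 98.004 to 100% of their sum, ENSMUST00000102803 in 10 libraries and ENSMUST00000168485 in 8. The larger was ENSMUST00000102803 in 3 saline, 4 AngII and 3 AngII_ETH libraries. The sum of the pair, 3.10 to 25.6 FPKM in saline, 4.73 to 36.2 in AngII and 5.51 to 28.0 in AngII_ETH, overlapped between the groups. The retained-intron transcripts ENSMUST00000227401 and ENSMUST00000149852 were at 0.0222 to 13.1 and 0.0361 to 3.99 FPKM.

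None of the 9 transcripts of Myh6 and Myh7 that reached a group mean of 1 FPKM passed an adjusted p of 0.05 in any of the 3 comparisons (limma over 17005 transcripts), and 0 of them had an unadjusted p under 0.05. Over all transcripts the adjusted threshold was passed by 0%, 0% and 0.0118% in AngII against saline, AngII_ETH against AngII and AngII_ETH against saline. The log2 fold changes of the 9 in AngII against saline ran from -0.84 to 1.98, with a lowest adjusted p of 0.687.

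**Figure D4:**
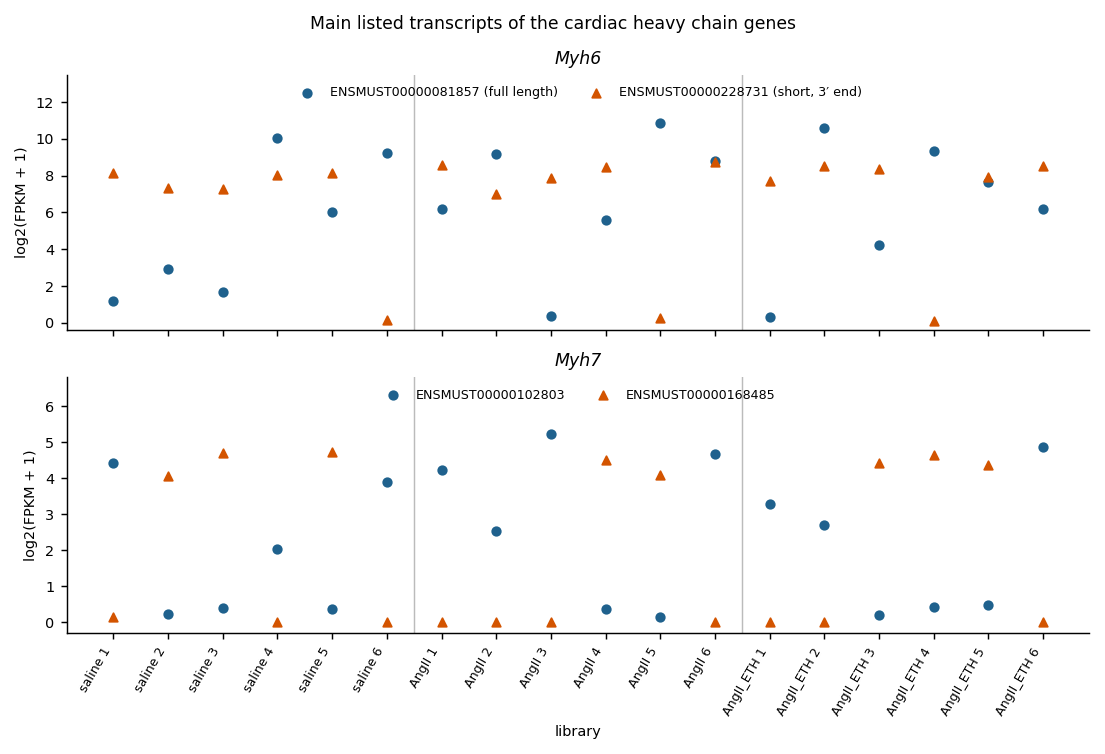
The upper panel plots the full-length (circles) and the short 3′ (triangles) transcript of Myh6 and the lower panel both full-length transcripts of Myh7, on a log2(FPKM + 1) axis for each of the 18 libraries, with lines between the groups. In every library 1 Myh7 transcript is near 0, and the short Myh6 transcript is near 0 in 1 library of each group.

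Across the 10 genes, 0 passed an adjusted p of 0.05 in AngII against saline, where 0.00854% of the 11704 tested genes did, and 0 in AngII_ETH against AngII, where 0% did. In AngII_ETH against saline 0 of 10 passed, beside 0.00854% of all genes. All 10 were tested in every comparison, since each reached a mean of 1 FPKM in at least 1 group. At an unadjusted p under 0.05 the counts were 1, 0 and 1 of 10, beside 9.06%, 1.91% and 7.51% of all genes. In AngII against saline 6 genes had a positive and 4 a negative log2 fold change, with a median of 0.31 beside -0.06 over all genes tested. In AngII_ETH against AngII the median was -0.04 beside 0.02, and in AngII_ETH against saline 0.31 beside -0.03. The last comparison shares its libraries with the others.

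The single gene behind these counts was Myl12a, a regulatory light chain of nonmuscle myosin II, whose phosphorylation is known to set nonmuscle myosin contractility. Its values were 215, 189, 204, 227, 282 and 174 FPKM in saline replicates 1 to 6. They were 315, 309, 412, 356, 442 and 372 FPKM in AngII, and 292, 301, 431, 410, 345 and 324 in AngII_ETH. Every library of both infused groups lay above every saline library, and the infused groups overlapped each other.

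For Myl12a the log2 fold change of AngII against saline was 0.77 (SE 0.135, 95% interval 0.49 to 1.06). Its unadjusted p of 2.0e-05 ranked 3 of 11704 genes, and the limma adjusted p was 0.0779, which misses the threshold. AngII_ETH exceeded saline by 0.70 (SE 0.135, adjusted p 0.178, rank 4). The interval of AngII_ETH against AngII was -0.35 to 0.21 around -0.07 in the same limma fit. In AngII against saline 1 of 10 members was higher without overlap, beside 0.162% of all genes, and in AngII_ETH against saline 1 of 10, beside 0.359%.

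The side of the threshold on which Myl12a fell depended on the fit. With the chamber and adipocyte levels as covariates, the log2 fold change of AngII against saline was 0.70 (SE 0.173, adjusted p 0.536 in limma, rank 20), and the summed adipocyte markers of 5 saline libraries exceeded the 24.0 FPKM that was highest in AngII. With the chamber level alone as a covariate, the log2 fold change was 0.75 (SE 0.125, adjusted p 0.0380) in AngII against saline, where 0.0513% of all genes passed, and 0.66 (adjusted p 0.0986) in AngII_ETH against saline, where 0.00854% did. Without saline replicate 5, the highest saline library at 282 FPKM, the limma values were 0.86 (adjusted p 0.0242) and 0.78 (adjusted p 0.0302). Leaving out each library in turn gave 0.72 to 0.86 in AngII against saline with adjusted p of 0.0242 to 0.300.

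Most of the Myl12a sum came from a pair of transcripts with the same coding sequence of 516 bases and different ends. ENSMUST00000024846 (980 bases) was lowest at 75.4 FPKM, with a median of 110 and a highest value of 177 in saline, at 204, 244 and 265 in AngII and at 111, 155 and 359 in AngII_ETH. All AngII libraries lay above all saline libraries for it, as for 0.171% of transcripts, while AngII_ETH overlapped both. Its log2 fold change was 1.07 in AngII against saline (SE 0.240, adjusted p 0.452) and -0.52 in AngII_ETH against AngII (95% interval -1.03 to -0.02, unadjusted p 0.0440), which did not pass the adjusted threshold. ENSMUST00000148960 (1937 bases) was at 49.9 to 134 FPKM in saline, 51.3 to 171 in AngII and 42.6 to 238 in AngII_ETH, and its log2 fold change of AngII against saline was 0.29 (SE 0.393). With length-weighted sums saline and AngII overlapped, with saline replicate 5 at 209 FPKM above AngII replicate 1 at 187, and the gene's log2 fold change was 0.65 (adjusted p 0.363 in limma). AngII_ETH, at 224 to 337 FPKM, still lay above all saline libraries with these sums, with a log2 fold change of 0.73 (adjusted p 0.230).

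Myl12b, the neighbouring paralogue, was at 17.9 to 35.0 FPKM in saline, 18.9 to 38.9 in AngII and 18.04 to 39.1 in AngII_ETH. The groups overlapped over nearly the whole range. Its log2 fold changes were -0.08 (95% interval -0.49 to 0.34), -0.01 (-0.43 to 0.40) and -0.09 (-0.50 to 0.33) in the 3 comparisons. The ratio of Myl12a to Myl12b was 8.34 ± 3.71 in saline, 14.6 ± 4.12 in AngII and 14.1 ± 3.92 in AngII_ETH (SD, n = 6 each). Ratios of single libraries ran from 5.36 to 15.7 in saline and from 11.4 to 21.8 in AngII, so that they overlapped, and the difference in response between the genes was not tested.

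None of the sarcomeric light chains passed the threshold in any comparison. The log2 fold changes of AngII against saline were 0.98 for Myl2 (SE 1.74), 1.26 for Myl3 (SE 1.04), -0.04 for Myl4 (SE 2.22), -0.58 for Myl7 (SE 2.38) and 0.41 for Myl1 (SE 0.826). For AngII_ETH against AngII they were 1.23, 0.57, -0.25, -0.44 and 0.42 with the same standard errors. With the chamber level in the fit, the signs of Myl4 and Myl7 in AngII against saline turned, to 1.21 (SE 0.737) and 0.72 (SE 0.972). Myl1 in AngII_ETH against saline was 0.84 (SE 0.826), and 1.38 (SE 0.476, unadjusted p 0.0102, adjusted p 0.379 in limma) with the chamber level in the fit.

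The 5 libraries with Myl7 or Myl2 near 0 were also left out together, which leaves 4, 4 and 5 libraries and selects on the light chains themselves. In AngII against saline Myl3 then stood at 1.81 (SE 0.548, adjusted p 0.375 in limma) and Myl2 at 1.54 (SE 0.603, adjusted p 0.406), with every remaining AngII library above every remaining saline library for both, beside 2.42% of 11829 genes higher without overlap. An adjusted p under 0.05 was reached by 0.0169% of genes there and by none of the 10. Myl2 was at 1749, 1820, 3422 and 361 FPKM in the 4 saline libraries and at 3943, 4091, 4437 and 3904 in the 4 AngII libraries. The 361 FPKM belonged to saline replicate 4, where Myl3 was at 422 FPKM, Irx4 at 0.102 and the chamber level at 1.64. Its summed cardiomyocyte markers, at 1982 FPKM, were the lowest of the 18 libraries. The part of this library in the fold changes was not tested. The remaining saline libraries had chamber levels of 0.58 to 1.77 and the AngII libraries of 0.08 to 0.69, so that chamber level and group moved together in this subset. AngII replicate 6, at 0.08, had Bmp10 at 0.0324 FPKM and Sln at 465. AngII replicate 1, at 0.69, had 381 and 474 FPKM, so these levels reflect Bmp10 as well as other markers. Of the log2 fold changes of AngII_ETH against AngII, those of Myl2 and Myl3 turned to -0.55 (SE 0.572) and -0.48 (SE 0.520).

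**Figure D5:**
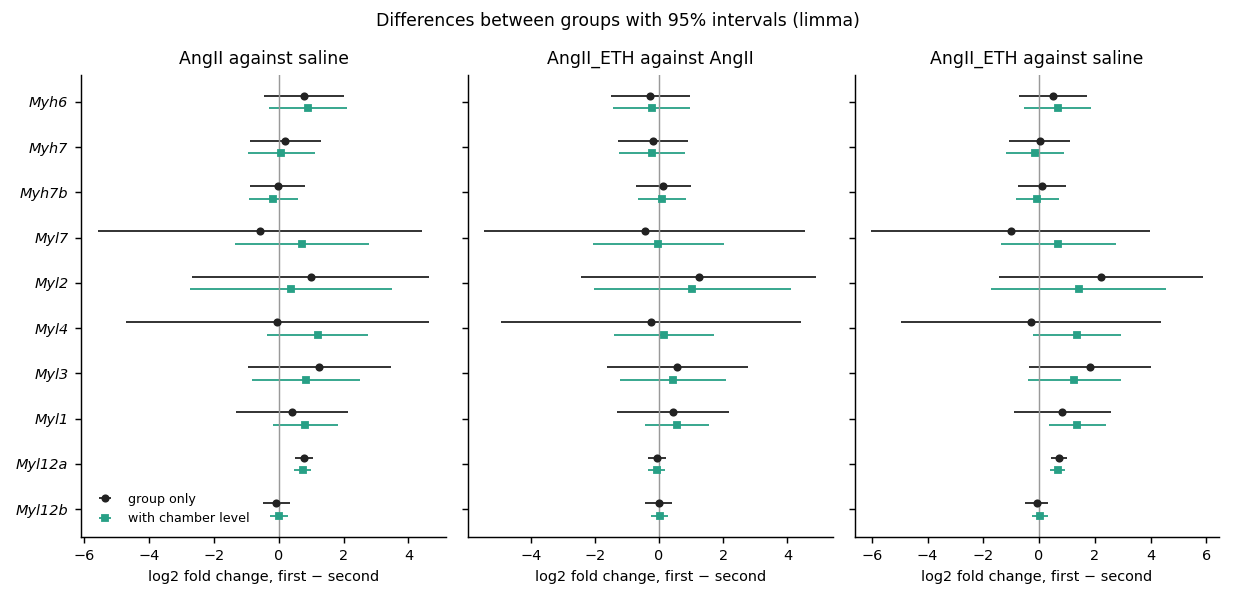
Each panel shows 1 comparison, with the log2 fold change of the 10 genes on log2(FPKM + 1) and its 95% interval from limma, without (circles) and with (squares) the chamber level in the fit. The intervals of Myl12a lie above 0 in both comparisons with saline, at 0.49 to 1.06 and 0.42 to 0.99 without the chamber level, and those of Myl7 and Myl4 span more than 9 log2 units without it.

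The other genes of the myosin pathway were taken from 5 lists with 54 genes in all, of which 41 could be tested. None of the 41 passed an adjusted p of 0.05 in any comparison, with lowest adjusted p of 0.454, 1 and 0.461 in limma. At an unadjusted p under 0.05 there were 4, 2 and 2 genes, or 9.76%, 4.88% and 4.88%, beside 9.06%, 1.91% and 7.51% of all genes. Of 11 other myosin II heavy chains 4 were listed, led by nonmuscle Myh9 at 28.8 ± 5.83, 35.2 ± 13.9 and 34.9 ± 9.09 FPKM in saline, AngII and AngII_ETH (SD, n = 6 each). Smooth muscle Myh11 was at 9.04 to 130 FPKM in saline, 8.86 to 12.9 in AngII and 10.4 to 62.6 in AngII_ETH. Nonmuscle Myh10 averaged 13.1, 9.34 and 12.2 FPKM.

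Of 5 other light chains 3 were listed. Myl9, the smooth muscle regulatory chain, averaged 257 ± 178, 160 ± 89.7 and 206 ± 127 FPKM, Myl6, the essential chain of smooth and nonmuscle myosin, 228 ± 184, 109 ± 39.8 and 160 ± 113, and Myl6b 1.77 ± 1.18, 1.50 ± 0.231 and 1.43 ± 0.165 (SD, n = 6 each). Myl6 differed by -0.84 in AngII against saline (SE 0.422, adjusted p 0.578 in limma). Its level in saline ran from 99.6 to 579 FPKM and the summed smooth muscle markers ran from 356 to 1567 FPKM in that group.

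Among 9 listed light chain kinases and phosphatase subunits of 11, the cardiac light chain kinase Mylk3 was the highest, at 114 ± 18.8, 122 ± 15.2 and 95.4 ± 11.6 FPKM in the 3 groups (SD, n = 6 each). Its difference of AngII_ETH against AngII was -0.35 (SE 0.120, unadjusted p 0.00985, adjusted p 1 in limma). The phosphatase subunits Ppp1cb, at 57.1, 51.8 and 50.9 FPKM, and Ppp1r12b, at 37.8, 35.6 and 37.2, differed by at most 0.17 between any pair of groups on the log2 scale. All 9 genes of myosin folding and turnover were tested. Trim54, a muscle-specific RING finger protein, averaged 84.4 ± 29.0, 136 ± 25.0 and 127 ± 25.8 FPKM, with log2 fold changes of 0.73 in AngII against saline and 0.63 in AngII_ETH against saline (adjusted p 0.454 and 0.461 in limma). The chaperone Hsp90ab1 averaged 372, 425 and 381 FPKM, and Smyd1, a muscle lysine methyltransferase needed for sarcomere assembly, 124, 147 and 147. Fbxo32, a muscle ubiquitin ligase named after its values were seen, was at 15.2 ± 1.63, 11.5 ± 2.34 and 11.8 ± 1.20 FPKM.

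Of 18 transcription factors of the myosin genes 16 were listed, the highest being the thyroid hormone receptor Thra at 57.7 ± 11.8, 49.3 ± 7.29 and 51.0 ± 6.28 FPKM, Gata4 at 24.0 ± 8.46, 30.3 ± 10.2 and 26.1 ± 5.39 and serum response factor Srf at 17.9 ± 5.64, 21.9 ± 4.70 and 20.5 ± 4.34 (SD, n = 6 each). Their log2 fold changes of AngII against saline were -0.21, 0.32 and 0.31, with adjusted p of 0.659, 0.734 and 0.686 in limma.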

How the data were processed

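Per the labels' protocols, ribosomal RNA was removed from total RNA and libraries were built with an NEB Ultra kit, which is not stated to keep strand. The authors deposited 1 value per transcript and library, taken here as FPKM made from the fragments and length of each transcript, since per the file headers no unit is named. The reason was that values times transcript length fell in steps, as 41.1 to 51.4% of values up to 10 fragments were whole within 0.05, at 63.9 to 80.8 fragments per FPKM and kilobase. The step was the best of many tried for each library, so these percentages cannot be set against a chance rate. Other units made from fragments and transcript length would give such steps too, so the steps do not single out FPKM. The submitters' processing notes name limma, and other tools and the build are not given.

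Of 28886 transcripts common to all files, 20480 could be matched to GENCODE M21 and gave 12913 genes. Unnamed assembled transcripts (8239, or 10.4 to 15.7% of the common sum) were left out, so a gene can be listed too low. Of 47 listed transcripts of the 10 genes, 1 is listed for AngII_ETH only and was left out. Genes reaching a mean of 1 FPKM in a group (11704) entered 1 limma fit of all 18 libraries (limma 3.58.1, R 4.3.3, trended prior, log2(FPKM + 1), Benjamini-Hochberg threshold 0.05), tested on simulated data first. Shares were compared by exact permutation (numpy 2.4.6), and Spearman's rho between members was computed with scipy 1.17.1. Pearson's r of log2(FPKM + 1) between libraries of a group, across genes, was 0.878 to 0.971. Coding sequences are from GENCODE and promoters from RefSeq. Replicates are numbered in accession order, and since the labels do not state separate animals, p-values measure only the spread between libraries. The 10 genes, the lists, the tests and the rule for names (all 10, and from each list the 3 with the highest mean and any past the threshold) were chosen with earlier results of these data known. Fbxo32 alone was named outside that rule. Scaling, pseudocount, filter, covariates, transcript sums and left-out libraries were varied.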

Additional observations from a re-analysis of the deposited data

Results flagged for a closer look

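In groups of 6 libraries, 9 of 39 groups of values held a library whose gap to its nearest neighbour, over the group's range, passed Dixon's 95% critical value. Chance flags about 1 in 20 groups where values are independent and normal. The 39 groups share libraries and related genes, so the count cannot be set against that rate. AngII replicate 5 gave 4 of the 9 flags, with Myl1 at 709 FPKM (next 203), Myl2 at 3.37 FPKM (next 3904), Myl3 at 67.2 FPKM (next 3290) and a Myl7 share of 99.8% (next 33.5%). AngII replicate 3 gave 2, with Myl7 listed at 0 FPKM (next 1492) and a Myh7 share of 17.2% (next 5.30%). AngII_ETH replicate 2 gave 2, with Myh6 at 2020 FPKM (next 649) and a Myh7 share of 0.293% (next 4.11%). Both heavy chain shares rest on plain transcript sums, and with length-weighted sums they were 63.3% (next 20.5%) in AngII replicate 3 and 0.332% (next 3.89%) in AngII_ETH replicate 2. Saline replicate 5 had Myh7b at 4.97 FPKM (next 1.53). Irx4 was listed at 0 in AngII replicate 5 and Sln was at 0.205 FPKM in AngII replicate 3.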

How the results depend on the processing

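No paired analysis was possible because the labels carry no replicate numbers. The alternatives cover fold changes, share differences and counts of called genes. Of 404 alternatives other than leaving out 1 library, 352 gave the same sign and call, or a similar count, and 37 a reversed sign. The rest changed call or count. Since most results were not called in any setting, an unchanged call says little. Of 864 that left out 1 library, these were 751 and 56. Myl12a was the one member called under an alternative, and it kept its sign against saline in all of them (0.70 and adjusted p 0.536 with both covariates in AngII against saline).

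In AngII against saline 1 gene of all tested was called. The count was 2 with median-of-ratios scaling, quantile normalization, the chamber and adipocyte covariates or without the 5 libraries, 6 with the chamber level, and 0 with only 2 groups in the fit, also with every transcript of those files. In AngII_ETH against saline 1 became 2 with both covariates or without the 5 libraries and 0 with 2 groups, and in AngII_ETH against AngII 0 became 1 without the 5 libraries. With the chamber level, 6 in AngII against saline, 0 in AngII_ETH against AngII and 1 in AngII_ETH against saline became 2, 1 and 0 without the 5 libraries. Leaving out 1 library gave 0 to 11 in AngII against saline and 0 to 8 in AngII_ETH against saline (11 and 8 without saline replicate 5, and 0 to 2 without any other library), and 0 to 5 and 0 to 4 with the chamber level.

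Reversed log2 fold changes of AngII against saline were 0.025 (median-of-ratios), 1.21 (chamber level) and 0.98 (both covariates) for Myl4, 0.72 and 0.47 (covariates) for Myl7, 0.014 and 0.0041 for Myl12b, -0.16 for Myh7 and -0.82 for Myl2 (both covariates), 0.041 (quantile) and 0.21 (without the 5 libraries) for Myh7b and -0.17 for Myl1 (without the 5). For AngII_ETH against AngII they were 0.018, 0.023 and 0.080 (chamber level, both covariates, without the 5) for Myl12b and 0.15, 0.27 and 0.022 for Myl4, 0.11 for Myl7 (both covariates), -0.55 and -0.48 for Myl2 and Myl3 (without the 5) and 0.081 for Myl12a (length-weighted). For AngII_ETH against saline they were, with the chamber level and both covariates, -0.14 and -0.25 for Myh7, -0.065 and -0.065 for Myh7b, 0.032 and 0.027 for Myl12b, 1.36 and 1.25 for Myl4 and 0.70 and 0.58 for Myl7, and -0.16 for Myh7b (length-weighted). Shares of AngII_ETH against AngII turned to 1.08 (Myh7), 10.2 (Myl4) and 4.12 (Myl7) percentage points without the 5 libraries, and the log2 ratio of Myh7 to Myh6 to 0.088.

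Leaving out 1 library turned signs within these ranges. In AngII against saline they were -0.16 to 0.57 (Myh7), -0.25 to 0.27 (Myh7b), -0.11 to 0.96 (Myl1), -0.19 to 0.0098 (Myl12b), -0.46 to 2.65 (Myl2), -1.76 to 1.63 (Myl4) and -2.49 to 1.22 (Myl7). In AngII_ETH against AngII they were -0.66 to 0.055 (Myh6), -0.54 to 0.097 (Myh7), -0.070 to 0.35 (Myh7b), -0.13 to 0.97 (Myl1), -0.13 to 0.10 (Myl12b), -0.43 to 1.65 (Myl2), -0.40 to 0.86 (Myl3), -1.92 to 1.37 (Myl4) and -2.24 to 1.26 (Myl7). In AngII_ETH against saline they were -0.34 to 0.30 (Myh7), -0.092 to 0.40 (Myh7b), -0.21 to 0.0094 (Myl12b), -2.01 to 1.33 (Myl4) and -2.93 to 0.68 (Myl7). Share differences of AngII_ETH against AngII ran from -1.79 to 1.53 (Myh7), -10.04 to 9.76 (Myl4) and -17.2 to 4.42 (Myl7) points. The cause was not tested. The inferred unit limits all levels, and few fragments limit Myh7b and the rarer transcripts.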
